A study of Homo sapiens with 8 samples.

Results

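The proteasome subunit genes form the subject here: every row of the expression table annotated to exactly 1 gene symbol that is PSMA, PSMB, PSMC, PSMD, PSME or PSMG followed by a number, without the inducible catalytic subunits PSMB8, PSMB9 and PSMB10. There were 36 such rows for 35 genes among 18495 rows in all, and PSMC1 had 2 rows. They comprise 13 rows of the core (PSMA and PSMB), 17 of the cap (PSMC and PSMD), 4 of activators (PSME) and 2 of core assembly chaperones (PSMG). Of 44 protein-coding genes with such names in RefSeq, 3 (PSMD14, PSMG2 and PSMG4) lay only in rows shared with another gene and 6 (PSMA8, PSMB6, PSMB11, PSMC5, PSMD7 and PSMD13) had no row under their own name, so these were not analysed here.

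RNA came from PNT2, an immortalized line of human prostatic epithelium, and was hybridized to Affymetrix human exon arrays. In 4 samples (siESRP) the cells had received small interfering RNAs against ESRP1 and ESRP2, which encode epithelial splicing regulators, and in 4 controls (siGFP) an interfering RNA against green fluorescent protein. Both groups share the cell line and the transfection, and nothing in the labels ties replicates to separate cultures. The p-values therefore rest on the variation among these arrays, part or all of which may be technical. Values are gene-level intensities and do not measure splicing or protein.

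The proteasome degrades proteins marked with ubiquitin. Its barrel-shaped core has outer rings of alpha subunits, which form the gate, and inner rings of beta subunits, some of which cut peptide bonds. A regulatory cap, with a base that holds a ring of ATPases and ubiquitin receptors and a lid that removes ubiquitin, unfolds substrates and feeds them in, while other activators open the gate without ubiquitin. Cells raise most subunit genes together when proteasome activity falls short, a response driven by the transcription factor NFE2L1.

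Proteasome genes moved little after ESRP depletion, and those that passed the test were lower. Of the 36 rows, 5 fell and 0 rose (limma with Benjamini-Hochberg adjustment over all rows, adjusted p under 0.05), while 31 did not pass. At an unadjusted limma p under 0.05 there were 9 lower and 1 higher, against 3015 lower and 3023 higher among all 18495 rows. Across all rows of the series 20.2% passed, 9.31% as lower and 10.9% as higher, against 13.9% of the proteasome rows, all lower. Among the 8387 rows at least as bright as the dimmest proteasome row, 30.8% passed, 15.1% as lower and 15.7% as higher. At the unadjusted limma p under 0.05, 2011 of these 8387 rows were lower and 1850 higher.

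The 5 that fell were PSMD8 and PSMD4 of the cap, PSMA4 of the core, the activator PSME3 and the assembly chaperone PSMG3. Their decreases were between 1.14-fold and 1.31-fold. No proteasome row differed by as much as 1.5-fold, a size reached by 12.4% of all rows and 8.51% of the equally bright rows. In 6 of the 36 rows (16.7%) the siESRP and siGFP values were fully separate, against 24.6% of all rows and 37.2% of the equally bright rows.

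**Figure D1:**
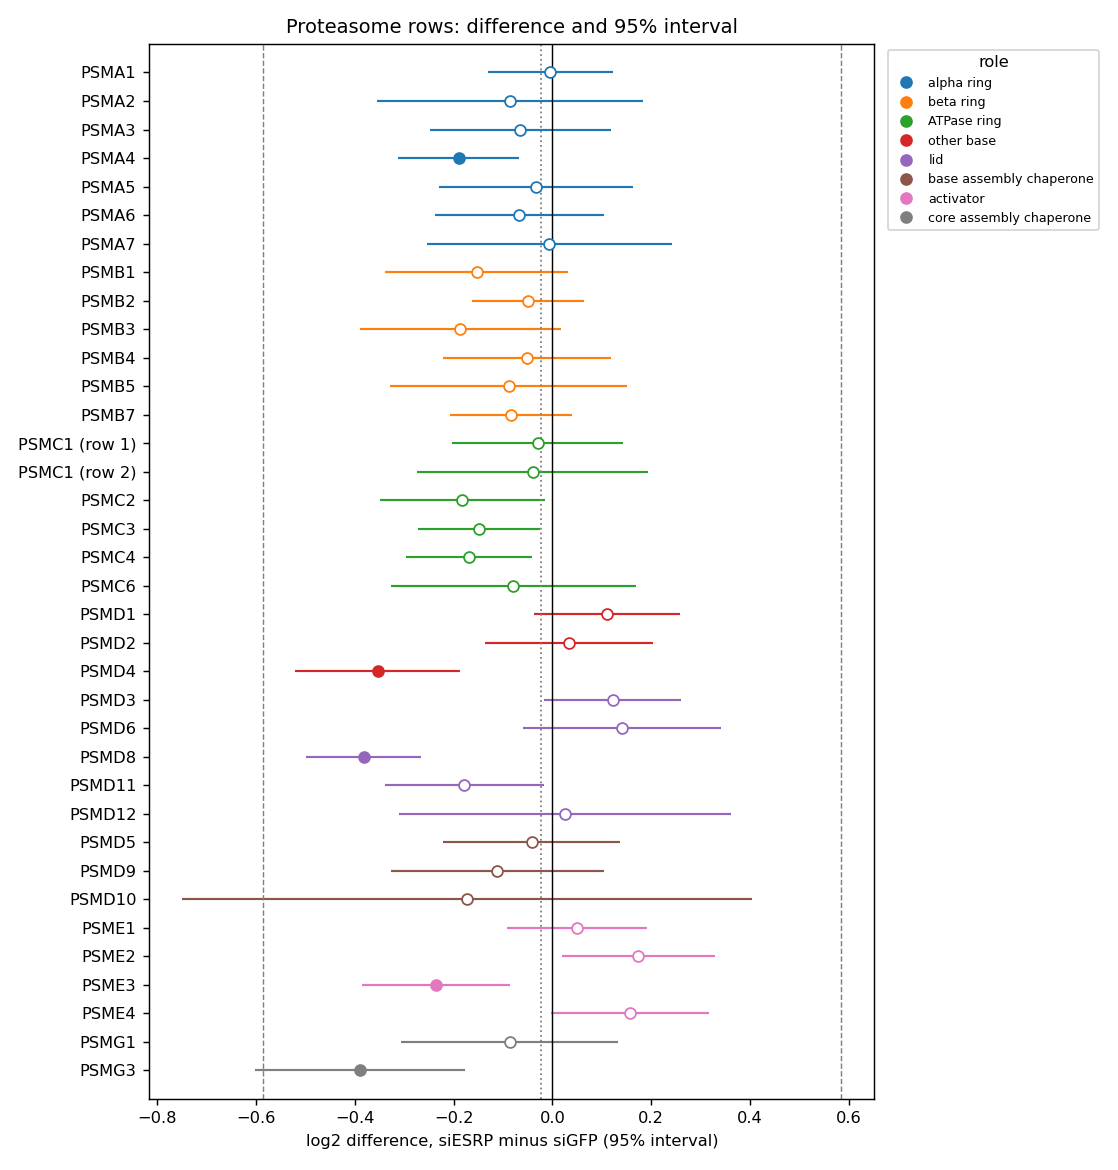
Log2 difference (siESRP minus siGFP) of each proteasome row with its 95% limma interval, coloured by role; filled points passed the threshold, the dotted line is the median of all rows and the dashed lines mark 1.5-fold. The 5 filled points all lie left of 0, between −0.39 and −0.19.

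The proteasome rows were measured more tightly than the table at large. The median standard error of the log2 difference was 0.07 over the 36 rows, 0.12 over all rows and 0.09 over the equally bright rows. The 95% interval lay wholly inside 1.5-fold in either direction for 34 of the 36 rows, and inside 1.2-fold for 14. The exceptions at 1.5-fold were PSMG3 and PSMD10. Small differences were hard to find in simulated arrays with 200 of 18495 rows changed. The test found 2 of 80 rows given a 1.2-fold change, 26 of 60 given 1.5-fold and 46 of 60 given 2-fold. It called 6 unchanged rows. The changed rows were not chosen to match the spread of the proteasome rows, and more rows were called in the real data. Recovery among the proteasome rows can therefore differ from these counts.

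Promoter windows are shown for the 3 called genes that the RefSeq promoter table (GRCh38.p14) lists, PSMD8, PSME3 and PSMA4. The other called genes, PSMD4 and PSMG3, are not listed there. Each line gives the 250 bases before a transcription start on the gene's strand, 5′ to 3′. Capitals mark matches on either strand to CCAAT, the letters bound by NF-Y, and to TGACNNNGC, the core of the antioxidant response element through which NFE2L1 and NFE2L2 act. The window of PSMD8 is chr19:38374321-38374570, that of PSME3 is chr17:42833147-42833396, and that of PSMA4, the third of 3 listed starts and the only one with a match, is chr15:78540536-78540785, all on the plus strand.
PSMD8: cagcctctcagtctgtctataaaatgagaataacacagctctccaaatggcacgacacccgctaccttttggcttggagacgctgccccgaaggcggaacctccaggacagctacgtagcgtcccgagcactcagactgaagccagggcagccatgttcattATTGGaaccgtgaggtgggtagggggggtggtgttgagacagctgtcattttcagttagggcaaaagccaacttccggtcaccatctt
PSME3: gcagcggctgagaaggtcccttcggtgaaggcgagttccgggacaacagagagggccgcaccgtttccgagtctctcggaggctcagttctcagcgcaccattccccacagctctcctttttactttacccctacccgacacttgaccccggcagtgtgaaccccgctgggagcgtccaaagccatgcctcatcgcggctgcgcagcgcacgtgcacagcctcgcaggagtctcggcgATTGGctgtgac
PSMA4: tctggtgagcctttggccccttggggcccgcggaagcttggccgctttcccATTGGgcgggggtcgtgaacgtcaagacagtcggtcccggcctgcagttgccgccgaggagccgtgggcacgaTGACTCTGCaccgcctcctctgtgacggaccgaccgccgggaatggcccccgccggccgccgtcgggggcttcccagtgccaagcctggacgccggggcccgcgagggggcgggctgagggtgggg

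Each of the 3 windows shown holds ATTGG, which is CCAAT on the other strand, and the PSMA4 window alone holds TGACTCTGC. The PSMA4 window was picked for its match, and the other listed PSMA4 starts had neither motif. Over the full windows of 300 bases (250 before to 50 after the start), the table lists 30 of the 35 proteasome genes in 35 windows. TGACNNNGC was found in 34.3% of these windows against 13.3% of all 35116 windows, and CCAAT in 42.9% against 34.6%. Counted by gene, TGACNNNGC was found in 40% of the listed proteasome genes against 16.1% of all genes, and CCAAT in 50% against 39.7%. The comparison took every listed gene and was not matched for gene type or base composition. The letters are a description and not evidence of binding. The other motifs searched, on both strands, were GGGCGG (62.9% against 45% of windows), CCGGAAG (25.7% against 10.3%), TGACTCA (5.71% against 4.95%) and TATAAA (8.57% against 11.5%). TGACTCA overlaps TGACNNNGC where GC follows it.

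The 12 proteasome genes with TGACNNNGC in a window had a median log2 difference of −0.0083, from −0.19 to 0.17, and 1 of them fell. The 18 genes listed without it had a median of −0.07, from −0.38 to 0.14, and 2 fell. The ranges of the genes with and without the letters overlapped.

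In the alpha ring, which gates the core, 1 of 7 rows fell and 0 rose. PSMA4 had quantile-normalized intensities of 5226, 5067, 5190 and 5312 on the siGFP arrays and 4837, 4532, 4205 and 4679 on the siESRP arrays. Every siESRP value lay below every siGFP value. The mean went from 5199 ± 102 to 4563 ± 269 (SD, n = 4 each), 1.14-fold lower (log2 difference −0.19 ± 0.05 SE, limma adjusted p = 0.0413).

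PSMA1 stood at the other end of the alpha ring. It measured 4566, 4855, 4647 and 4831 in siGFP and 4961, 4954, 4422 and 4532 in siESRP, with overlapping groups and a log2 difference of −0.0038 (95% interval −0.13 to 0.12). PSMA7 (−0.0060), PSMA5 (−0.03), PSMA3 (−0.06), PSMA6 (−0.07) and PSMA2 (−0.09) also did not pass.

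Of the 6 beta ring rows 0 passed (limma; also 0 at an unadjusted p under 0.05), and all 6 log2 differences lay below 0. PSMB3, a structural beta subunit, had the lowest. It measured 3388, 3700, 3291 and 3866 in siGFP and 3254, 3489, 2807 and 2988 in siESRP. The groups overlapped and the difference was −0.19 (95% interval −0.39 to 0.02; limma adjusted p = 0.188).

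PSMB2, also structural, had the difference nearest 0 in this ring, −0.05 (95% interval −0.16 to 0.06). Its values were 4370, 4336, 4594 and 4106 in siGFP and 4225, 4026, 4210 and 4359 in siESRP, again overlapping. The catalytic subunits with a row, PSMB5 of the chymotrypsin-like activity and PSMB7 of the trypsin-like activity, had differences of −0.09 and −0.08 without passing. PSMB1 (−0.15) and PSMB4 (−0.05) did not pass.

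All 13 core rows had a log2 difference below 0, with a median of −0.07, while the median over all rows was −0.02 and 53.0% of all rows lay below 0. The size of this lean depended on single arrays. The mean of the core rows relative to siGFP was −0.01, −0.07, −0.09 and −0.16 on siESRP replicates 1 to 4, and between −0.02 and 0.03 on the siGFP arrays. The value of siESRP replicate 1 therefore lay within the siGFP range, and without siESRP replicate 4 the number of core rows below 0 was 9 of 13 and their median −0.04. Without siESRP replicate 1 it was 13 of 13, with a median of −0.10. On the deposited scale 10 of 13 were below 0, with a median of −0.03.

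**Figure D2:**
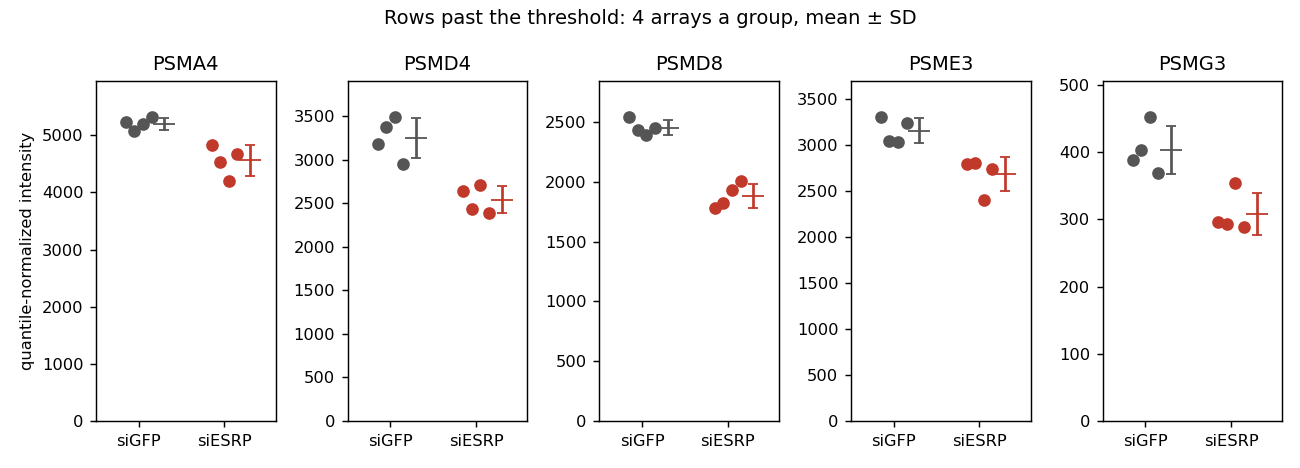
Quantile-normalized intensity on each of the 4 siGFP (grey) and 4 siESRP (red) arrays for the 5 proteasome rows that fell, with the mean ± SD beside the points and axes from 0. The groups do not overlap in any of the 5; in PSMD8 the lowest siGFP value is 2390 and the highest siESRP value 2002.

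In the cap, the ATPase ring that unfolds substrates had 0 of 6 rows past the limma threshold, and 3 rows were lower at an unadjusted p under 0.05. At that unadjusted limma p, 3015 of all 18495 rows were lower. PSMC2 was the lowest, with 1644, 1586, 1741 and 1547 in siGFP and 1607, 1328, 1428 and 1390 in siESRP. Only siESRP replicate 1 reached into the siGFP range, and the difference of −0.18 did not pass (limma adjusted p = 0.121). PSMC4 had separate groups, at 1649 to 1842 in siGFP and 1479 to 1640 in siESRP, with a difference of −0.17 that did not pass (limma adjusted p = 0.0710). PSMC3 (−0.15) and PSMC6 (−0.08) did not pass.

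The 2 rows annotated to PSMC1 gave like differences. The first measured 2765, 3201, 3435 and 3051 in siGFP and 3084, 2866, 3033 and 3183 in siESRP (−0.03, 95% interval −0.20 to 0.14), and the second differed by −0.04. Groups overlapped in both.

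Of the other base subunits, PSMD4, a receptor for ubiquitin chains, fell. It measured 3186, 3381, 3489 and 2955 in siGFP and 2638, 2435, 2715 and 2387 in siESRP, with no overlap. The mean went from 3253 ± 235 to 2544 ± 158 (SD, n = 4 each), 1.28-fold lower (log2 difference −0.35 ± 0.07 SE, limma adjusted p = 0.0131).

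The large scaffolds of the base did not share that direction. PSMD1 measured 2268, 2522, 2553 and 2396 in siGFP and 2604, 2424, 2808 and 2689 in siESRP, a difference of 0.11 (95% interval −0.04 to 0.26) with overlapping groups. PSMD2 differed by 0.03. Neither passed.

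In the lid, 1 of 5 rows fell and 0 rose. PSMD8, a lid subunit that joins late in assembly, measured 2537, 2434, 2390 and 2449 in siGFP and 1782, 1820, 1931 and 2002 in siESRP. The siESRP arrays all lay well below the siGFP arrays. The mean went from 2453 ± 61.9 to 1884 ± 101 (SD, n = 4 each), 1.30-fold lower (log2 difference −0.38 ± 0.05 SE, limma adjusted p = 0.00242). This was the smallest adjusted p of the 36 rows.

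PSMD6 had the highest difference of the lid, 0.14 (95% interval −0.06 to 0.34), from 4087, 3384, 3851 and 3426 in siGFP and 4247, 3669, 4352 and 3967 in siESRP. The groups overlapped. PSMD3 (0.12), PSMD12 (0.03) and PSMD11 (−0.18) did not pass. The cap is counted here as all PSMC and PSMD rows, so it includes the 3 base assembly chaperones described next and both PSMC1 rows. It had 2 of 17 rows lower, 0 higher and a median of −0.08. The median was −0.04 without siGFP replicate 4 and −0.05 without siESRP replicate 4. With 12 of 17 rows below 0, the cap held differences of both signs where the core held 1 sign. That contrast was not kept in every setting. As deposited, 10 of 13 core rows and 12 of 17 cap rows lay below 0. Without siESRP replicate 4 the counts were 9 and 11. Whether cap and core differ was not tested.

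The 3 chaperones that assemble the base, PSMD5, PSMD9 and PSMD10, did not pass (limma; 0 also at an unadjusted p under 0.05). PSMD10, also known as the oncoprotein gankyrin, varied most among arrays. It measured 2099, 1117, 1741 and 1378 in siGFP and 1758, 1600, 1107 and 1117 in siESRP, so the spread within each group exceeded the difference of −0.17 (95% interval −0.75 to 0.40). PSMD5 measured 1434, 1292, 1274 and 1296 in siGFP and 1345, 1359, 1326 and 1124 in siESRP, a difference of −0.04. PSMD9 differed by −0.11.

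**Figure D3:**
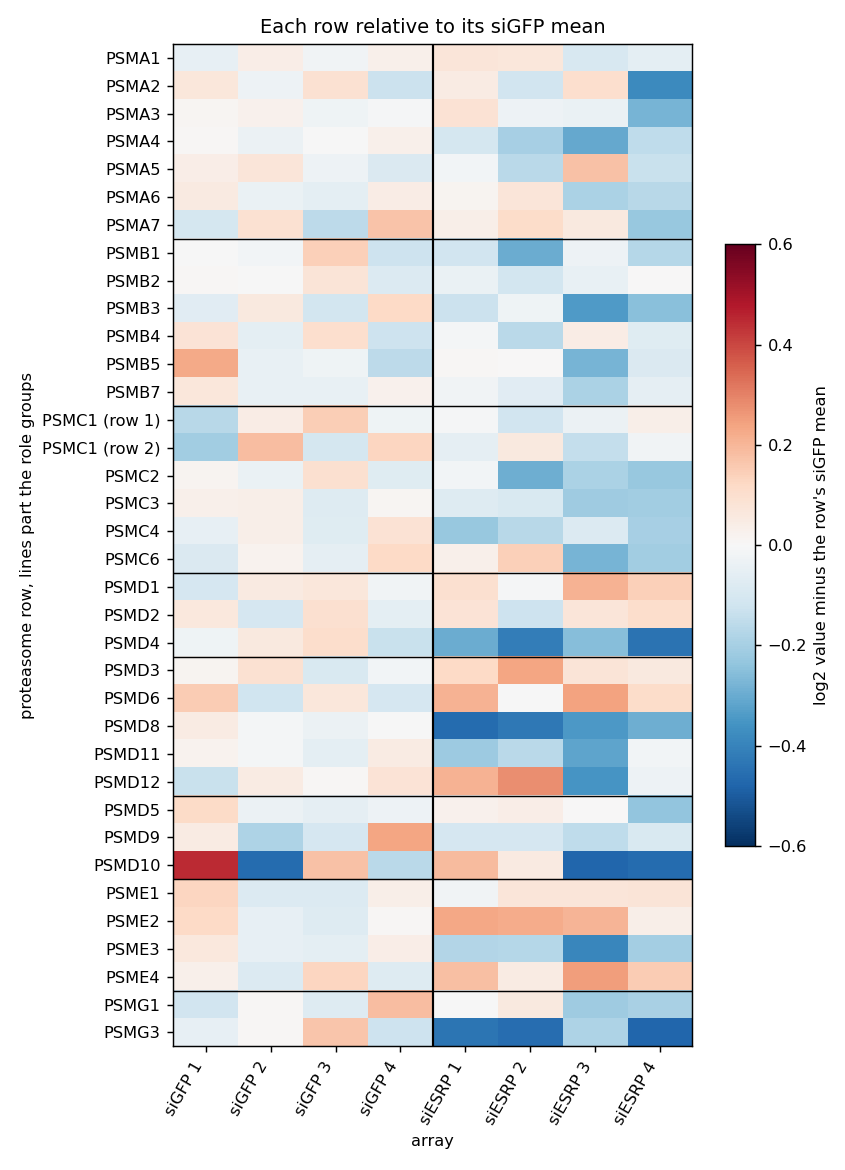
Heat map of the log2 value of each proteasome row minus its siGFP mean, with 4 siGFP and 4 siESRP arrays as columns and lines parting the role groups. PSMD4, PSMD8 and PSMG3 are blue on all 4 siESRP arrays, and PSMD10 varies from red to blue within both groups.

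Among the activators PSME3 fell and the other 3 did not pass. PSME3, a nuclear activator that works without ubiquitin, measured 3302, 3050, 3033 and 3246 in siGFP and 2796, 2801, 2406 and 2738 in siESRP, with no overlap. The mean went from 3158 ± 136 to 2685 ± 188 (SD, n = 4 each), 1.18-fold lower (log2 difference −0.24 ± 0.06 SE, limma adjusted p = 0.0405).

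PSME1 and PSME2, which form the interferon-inducible activator, differed by 0.05 and 0.17. PSME2 measured 2325, 2072, 2032 and 2155 in siGFP and 2520, 2503, 2465 and 2197 in siESRP. Its groups overlapped by siESRP replicate 4 and siGFP replicate 1, and the 95% interval of 0.02 to 0.33 did not meet the adjusted threshold (limma adjusted p = 0.113). PSME4, an activator of nuclear proteasomes, differed by 0.16 (95% interval −0.0024 to 0.32). The activator median was 0.10.

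Of the core assembly chaperones, PSMG3 fell and PSMG1 did not pass. PSMG3 measured 388, 404, 452 and 369 in siGFP and 296, 293, 354 and 289 in siESRP, with no overlap. The mean went from 403 ± 35.3 to 308.0 ± 30.6 (SD, n = 4 each), 1.31-fold lower (log2 difference −0.39 ± 0.09 SE, limma adjusted p = 0.0232). PSMG1, the partner of PSMG2 in the first assembly step of the alpha ring, measured 1650, 1790, 1688 and 2032 in siGFP and 1782, 1859, 1541 and 1561 in siESRP (−0.09, 95% interval −0.31 to 0.13).

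Each of the 5 rows that fell gave p = 0.0286 in an exact permutation test (two-sided), the lowest value possible with 4 arrays a group. Any row with fully separate groups must give this value, as PSMC4 did without passing limma. The permutation test therefore adds nothing to the separation already described. PSMD8 and PSMD4 passed limma whichever single array was left out. PSMG3 did not pass without siGFP replicate 2 or siESRP replicate 1, 2 or 4 (adjusted p between 0.0100 and 0.0662 over the 8 omissions). PSMA4 passed only when siESRP replicate 1 was the array left out (0.0432 to 0.0992), and PSME3 only when siESRP replicate 3 was (0.0433 to 0.0967). On the deposited scale, where array medians ran from 233 to 286, none of the 5 passed in limma (adjusted p from 0.111 for PSMD8 to 0.543 for PSMA4; 0 of the 36 rows higher at an unadjusted p under 0.05 and 3 lower).

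**Figure D4:**
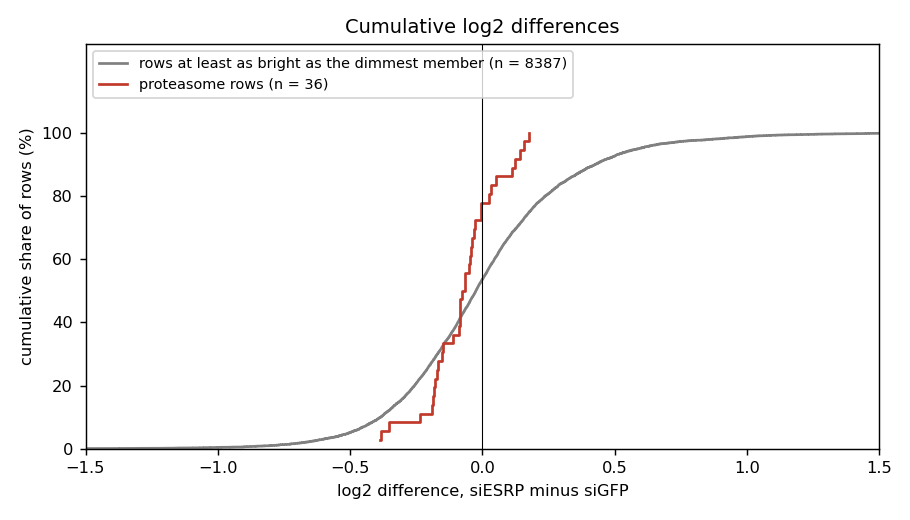
Cumulative share of rows (%) by log2 difference (siESRP minus siGFP) for the 36 proteasome rows and for the 8387 rows at least as bright as the dimmest of them; the horizontal axis is cut at −1.5 and 1.5. The proteasome curve runs from −0.39 to 0.17 and crosses 0 at 77.8% against 53.7%.

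The place of the proteasome rows relative to other genes depended on the scaling. Their median log2 difference was −0.07 against −0.02 for all rows after quantile normalization (−0.11 without siESRP replicate 1 and −0.05 without siESRP replicate 4), −0.06 against −0.10 as deposited and −0.11 against −0.15 with median scaling, so it was below the median of all rows only with the first. Against the equally bright rows it was lower under all 3 scalings, where those rows had medians of −0.02, −0.02 and −0.07. The median absolute log2 difference was 0.10 in proteasome rows and 0.20 in the equally bright rows.

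Genes that work with the proteasome were counted in the same way. Of 27 such partner genes, 25 had a row of their own, of which 2 rose, 2 fell and 21 did not pass, with a median log2 difference of −0.06. The share called was 16%, against 20.2% of all rows and 30.8% of the rows at least as bright as the dimmest proteasome row. Whether these shares differ was not tested. UBQLN2, a shuttle that carries ubiquitinated proteins to the proteasome, rose 1.30-fold from 753 ± 74.7 to 979 ± 51.8 (SD, n = 4 each, limma adjusted p = 0.0152). USP14, a deubiquitinase bound to the cap, rose 1.26-fold from 1711 ± 202 to 2151 ± 129 (limma adjusted p = 0.0415), with siESRP replicate 3 below siGFP replicate 4.

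ZFAND2A, an arsenite- and heat-inducible proteasome-binding protein, fell 1.46-fold from 819 ± 80.2 to 559.7 ± 40.1 (limma adjusted p = 0.00528). NGLY1, the deglycosylase needed to activate NFE2L1, fell 1.18-fold from 1084 ± 57.6 to 922 ± 58.7 (limma adjusted p = 0.0397). NFE2L1 itself differed by −0.04 (95% interval −0.19 to 0.11). UBQLN2 and ZFAND2A passed in all 8 omissions of an array, and USP14 and NGLY1 only when siGFP replicate 4 or siESRP replicate 3 was left out. On the deposited scale none of the 4 passed in limma (adjusted p of 0.0556 for UBQLN2, 0.0737 for USP14, 0.0517 for ZFAND2A and 0.320 for NGLY1).

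The assembly factor POMP (−0.11), the ubiquitin receptor ADRM1 (0.11), the small cap subunit SEM1 (−0.09) and the inhibitor PSMF1 (−0.19) did not pass. The inducible catalytic subunits PSMB8 (0.02) and PSMB10 (−0.06) did not pass either, nor did the row that PSMB9 shares with a PSMB8 antisense gene (−0.10).

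As a check of the labels, the ESRP1 row went from 2439 ± 169 in siGFP to 581.5 ± 66.9 in siESRP (SD, n = 4 each). The row that ESRP2 shares with NFATC3 went from 531 ± 33.4 in siGFP to 148 ± 27.4 in siESRP. Epithelial markers were bright, with 6 of 8 listed genes measured and a summed intensity of 22666 to 23589 in siGFP and 25475 to 26350 in siESRP, where 3 of the 6 passed as higher. Of the prostate luminal markers, KLK2 and KLK3 had group means under 80. The 4 leukocyte markers summed to 129 to 152 in siGFP and 123 to 215 in siESRP, with none of them past the limma threshold, and the fibroblast list to 408 to 473 and 322 to 379, where COL1A1 passed as lower. The 3 endothelial markers summed to 284 to 339 in siGFP and 361 to 448 in siESRP, where CDH5 passed as higher. The part of these differences in the proteasome values was not tested, and in bulk samples fewer cells of a type and less RNA per cell cannot be told apart.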

How the data were processed

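The authors deposited 1 table of linear intensity values, whole numbers with 18495 rows and 8 arrays, of which 2.70% to 4.02% per array lie below 0. For background correction, probe summary, scaling and genome build, no method was named (not given in the sources used here). Because array medians differed by 0.29 on the log2 scale, arrays were quantile normalized, values below 0 set to 0, and log2(value + 1) taken; none of the proteasome rows held a value below 0. A fold change is taken on the log2(value + 1) scale. Differences were tested with limma 3.58.1 (R 4.3.3; lmFit, eBayes, two-sided, no covariate) and Benjamini-Hochberg adjustment over all 18495 rows at 0.05.

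Symbols came from GEO's platform annotation. It gives 14577 rows 1 symbol, 2849 several and 1069 none, and all 36 proteasome rows kept their symbol when matched by Entrez ID to RefSeq (GRCh38.p14). The members and lists were chosen with earlier results of these data known. The rule was to name every proteasome row and to give values on every array for those past the threshold and for the highest and lowest difference in each of 8 role groups; partner genes are named where called, with POMP, ADRM1, SEM1, PSMF1 and NFE2L1. The range of PSMC4 is given because its groups do not overlap, a choice made after its values were seen. Alternatives were other scalings, a filter on dim rows, eBayes with a trend and robust fit, a larger pseudocount (16), a replicate block and leaving out each array. Steps were tested on simulated data.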

Additional observations from a re-analysis of the deposited data

Results flagged for a closer look

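In 8 of 72 groups of 4 arrays, the gap between the highest or lowest array and its nearest neighbour, divided by the range of the group, exceeded Dixon's 95% critical value, where chance gives about 1 in 20, or 3.6. In siESRP, PSME1 had the largest ratio, 0.969, with replicate 1 low at 1689 against 1802 or more. PSMD9 had a ratio of 0.907 (replicate 3 low), PSMG3 0.879 (replicate 3 high, at 354 against 296 or less), PSMD5 0.870 (replicate 4 low), PSMD2 0.854 (replicate 2 low), PSME3 0.850 (replicate 3 low, at 2406 against 2738 or more) and PSME2 0.840 (replicate 4 low). In siGFP, PSMD5 had a ratio of 0.855 (replicate 1 high).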

How the results depend on the processing

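The number of proteasome rows that fell was 5 as reported, 0 on the deposited scale, 3 without the dimmest 25% of rows, 3 with the replicate number as a replicate block, and 2 to 5 when 1 array was left out. With median scaling it was 4, with 3 of these shared with the reported 5. The share of all tested rows called in either direction was 20.2% as reported and 9.05% on the deposited scale. It was 28.6% without the dimmest 25% of rows, 12.4% with the replicate block and 19.3% with median scaling. Over the omissions of 1 array it ran from 14.7% to 20.5%. Some omissions also called a row outside the reported 5. These were PSMC2 without siESRP replicate 1, PSMC4 without siESRP replicate 3 and PSMD11 without siESRP replicate 4. No proteasome row rose in limma under any alternative run (0 to 3 rows were higher at an unadjusted p under 0.05). Over all rows, 1045 were higher and 628 lower on the deposited scale, 946 were lower with the replicate block, and median scaling turned the split from 2007 higher and 1722 lower to 1535 higher and 2036 lower, with the median of all rows at −0.15. The cap and activator medians moved to −0.13 and 0.033 with median scaling. Deviations of same-numbered arrays from their group means correlated by 0.15, 0.09, −0.27 and −0.02 for replicates 1 to 4, and not every array correlated best with its own number, so the numbers were not taken to pair the samples. With the replicate block PSMA4, PSME3 and the partner genes USP14 (adjusted p = 0.0577) and NGLY1 (0.0899) did not pass. A pseudocount of 16 and a trended, robust eBayes each kept the same 5 calls. No called proteasome or partner row changed sign in any of the 14 alternatives run. Of the proteasome rows that were not called, a change of sign occurred 3 times as deposited, 2 times with median scaling and 18 times over the 8 omissions. The number of arrays limits what small differences can show. The cause of the changes above was not tested.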
